A study of Mus musculus with 200 samples.

Results

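Axon guidance genes were examined in the brains of mice with a closed head injury (CHI) or sham surgery, by bulk RNA sequencing of brain tissue. Genes were taken by name: semaphorins, their plexin and neuropilin receptors, ephrins and Eph receptors, Slit ligands and Robo receptors, netrin-1 (Ntn1) and its receptor Dcc. Of 65 genes with such names, 60 had at least 10 counts in at least 20 of the 200 mice, out of 56941 genes listed. These 60 were 20 semaphorins, 9 plexins, 2 neuropilins, 7 ephrins, 13 Eph receptors, 3 Slits, 4 Robos, Ntn1 and Dcc. Efna4, Epha1 and the antisense genes Plxna4os1, Plxna4os2 and Plxna4os3 did not pass. The rule uses names and counts over all mice, but the gene group was chosen with earlier results of these mice known, so its share of genes passing is a description.

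The mice were of 4 strains, C57BL/6J (n = 61) and the strains labelled IL-1R1 gKO (n = 55), IL-1R1 eRestore (n = 50) and IL-1R1 nRestore (n = 34), male and female, aged 3.3 to 7.67 months, and were collected 9, 24 or 72 h after surgery. At 9 h there were 15 CHI and 6 sham C57BL/6J mice, 13 and 6 gKO mice, 12 and 6 eRestore mice and 6 and 4 nRestore mice. At 24 h the numbers were 14 and 6, 12 and 6, 9 and 5, and 8 and 5 in the same order, and at 72 h 14 and 6, 12 and 6, 12 and 6, and 6 and 5. Sham and CHI mice of a strain share the strain label. The labels do not spell out gKO, eRestore and nRestore, and Il1r1 did not check them: its median normalised read count was 115 in C57BL/6J mice and 218, 170 and 206 in gKO, eRestore and nRestore mice. Mice were treated in 8 experiments, and the 3 experiments at 9 h held no mouse of the later times, so time and experiment cannot be told apart. All nRestore mice at 9 h came from 1 experiment, and all at 72 h were male.

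Axon guidance genes encode cues and receptors that steer growing axons, mostly by turning the growth cone away from a source or towards it. Semaphorins signal through plexins, with neuropilins as co-receptors for the secreted class, ephrins through Eph receptors, Slits through Robos, and netrin-1 through Dcc. In the adult brain the same molecules act at synapses, on blood vessels and on glia.

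Total estimated counts per mouse ran from 14857985 to 57355676, with a median of 20258936. The summed level of 5 choroid plexus markers differed widely between mice, from 117.9 to 36585 normalised counts in CHI mice at 9 h and from 198.1 to 77316 in sham mice, and 4 of the 5 were lower in CHI mice over all strains at 9 h. Of 5 astrocyte markers 3 were higher in CHI mice at 9 h, of 5 microglial markers 3 were lower, and of 5 meningeal fibroblast markers 3 were lower. The summed level of 4 red blood cell markers had a median of 711 normalised counts in CHI mice at 9 h and 102.2 in sham mice, with overlapping ranges, and 0 of the 4 passed in edgeR (3 at an unadjusted p under 0.05). The part of these markers in the results below was not tested, beyond the fits with choroid plexus level given beside them. In bulk tissue, fewer cells of a type and less RNA per cell cannot be told apart.

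In sham mice the level per transcript length (TPM) covered a wide range. Sema7a, a membrane-anchored semaphorin, was highest with a median of 110 TPM (n = 67), followed by the Eph receptor Epha4 at 76.4, the ephrin Efnb3 at 57.8, Robo2 at 50.8 and Sema6b at 49.9 TPM. The ranges of Robo2 and Sema6b over mice overlapped. Lowest were the Eph receptors Epha8 at 1.85 TPM and Epha2 at 0.55 TPM, with Sema3b at 1.40 TPM between them. Dcc, Efna1 and Ntn1 were close together, with medians of 4.54, 4.51 and 4.33 TPM.

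**Figure D1:**
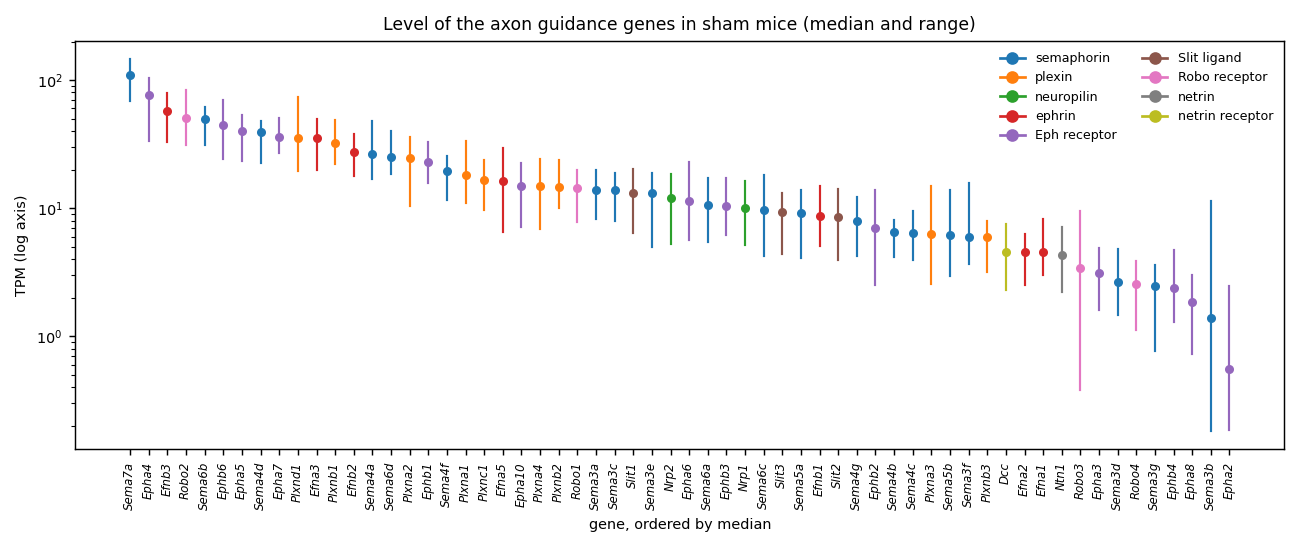
Level of each of the 60 genes in the 67 sham mice of all strains and times, as TPM on a log axis. Points are medians, lines run from the lowest to the highest mouse, and colours mark the family; Sema7a stands highest with a median of 110 TPM and Epha2 lowest with 0.55 TPM.

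The promoters of 4 genes that lead the results below are shown to let a reader compare their start regions: Sema4a and Epha10, which were higher in CHI mice at 9 h, and Slit2 and Plxnb3, which were lower. Each is 300 bases from 250 before to 50 after the RefSeq start, on GRCm38.p6. They lie at chr3:88461133-88461432 (minus strand), chr4:124881535-124881834 (plus), chr5:47982905-47983204 (plus) and chrX:73756853-73757152 (plus). Capitals mark a GC box (GGGCGG) or a TATA box (TATAAA), each searched on either strand.
Sema4a: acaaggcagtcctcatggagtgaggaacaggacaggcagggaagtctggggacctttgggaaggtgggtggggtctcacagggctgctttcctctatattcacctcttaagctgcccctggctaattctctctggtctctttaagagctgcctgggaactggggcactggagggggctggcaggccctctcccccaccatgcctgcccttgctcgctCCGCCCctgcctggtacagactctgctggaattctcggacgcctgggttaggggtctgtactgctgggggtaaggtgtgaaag
Epha10: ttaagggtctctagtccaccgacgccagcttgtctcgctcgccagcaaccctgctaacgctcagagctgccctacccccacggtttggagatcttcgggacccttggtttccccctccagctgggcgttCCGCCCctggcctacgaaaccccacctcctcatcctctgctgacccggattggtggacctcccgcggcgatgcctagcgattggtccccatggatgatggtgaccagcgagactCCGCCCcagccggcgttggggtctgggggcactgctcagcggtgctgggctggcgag
Slit2: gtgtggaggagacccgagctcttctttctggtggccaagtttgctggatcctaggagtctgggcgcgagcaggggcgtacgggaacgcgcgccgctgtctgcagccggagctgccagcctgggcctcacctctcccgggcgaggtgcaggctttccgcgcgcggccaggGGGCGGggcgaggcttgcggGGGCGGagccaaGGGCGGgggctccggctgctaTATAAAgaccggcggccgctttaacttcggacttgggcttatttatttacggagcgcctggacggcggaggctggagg
Plxnb3: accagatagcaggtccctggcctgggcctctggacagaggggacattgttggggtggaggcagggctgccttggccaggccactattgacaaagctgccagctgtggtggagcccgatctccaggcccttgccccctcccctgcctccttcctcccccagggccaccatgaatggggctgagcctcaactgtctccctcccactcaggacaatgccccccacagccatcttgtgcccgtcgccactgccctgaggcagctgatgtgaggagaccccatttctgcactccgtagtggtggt
Slit2 held 3 GC boxes and a TATA box 28 bases before the start, Epha10 held 2 GC boxes and Plxnb3 held neither motif. The Sema4a start shown held 1 GC box, and is 1 of 4 RefSeq starts of that gene, whose promoters hold 0 to 2. RefSeq promoters were matched for 51 of the 60 genes, and 39 of the 51 held a GC box, against 38.2% of all genes with a promoter. A TATA box stood in 2 of the 51, against 15.7% of all genes. A match of letters is a description and shows no binding.

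In the build of the deposited counts, GRCm39, Sema4a lies at chr3:88343262-88372558 on the minus strand, Slit2 at chr5:48140480-48465075 (plus), Plxnb3 at chrX:72800620-72816120 (plus), Efna1 at chr3:89179037-89188449 (minus) and Epha10 at chr4:124774692-124811594 (plus). Reads were summed over whole genes. Plxnb3 and Efna1 overlap no other annotated gene, and Epha10 overlaps 2 on the other strand. Slit2 overlaps 6 genes on its own strand, Mir218-1 among them, and 1 on the other, and Sema4a overlaps 1 on each strand, and reads shared with these cannot be told apart.

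At 9 h the axon guidance genes changed in both directions. Over all strains 29 of 60 passed the test (48.3%, edgeR quasi-likelihood F test, Benjamini-Hochberg adjusted p under 0.05), 10 higher and 19 lower in CHI mice, while 23.9% of all 18741 genes tested passed. The 18741 genes needed 10 counts in only 4 mice, while most of the 60 had 10 counts in all 200 mice. The part of read level in the 2 shares was not tested. The median log2 fold change was -0.07 over the 60 genes and -0.00261 over all genes. In C57BL/6J mice 17 passed (6 higher, 11 lower), against 14.1% of all genes, 7.05% higher. In eRestore mice 11 passed (8 higher, 3 lower), against 7.34% of all genes, 4.1% higher and 3.24% lower. In nRestore mice 5 passed (1 higher, 4 lower), against 0.608%, 0.345% higher and 0.262% lower. In gKO mice 4 passed (1 higher, 3 lower), against 0.199%, 0.0723% higher. When each sham mouse was left out in turn, the counts ran from 11 (without replicate 1) to 17 in C57BL/6J mice, from 2 to 14 in eRestore, from 0 to 7 in nRestore and from 0 to 4 in gKO mice, so that in every strain a single sham mouse moved the count by more than 1.5 times. Without gKO replicate 2, 3 or 5, or nRestore replicate 3, it was 0, and without eRestore replicate 1 it was 2. The fold change had the same sign in all 4 strains, whose mice are separate, for 31 of the 60 genes (51.7%) and for 35.2% of all genes, and 12 of the 31 were higher and 19 lower in CHI mice. At least 1 strain called 26 of the genes, at least 2 strains called 7, and all 4 called Sema4a and Slit2. The share of all genes called in as many strains was not computed, so these counts are a description. Some of these calls depended on the setting. Slit2 in eRestore mice passed in 4 of 16 other settings (-0.37 to -0.16, adjusted p up to 0.57 in edgeR with the largest experiment alone) and Sema4a in gKO mice in 7 of 16 (0.43 to 0.63, adjusted p up to 0.44).

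Among the semaphorins Sema4a, a membrane-bound class 4 member, rose in every strain. In C57BL/6J mice it had 878 to 1194 normalised read counts after CHI (median 1009) and 531 to 780 after sham surgery (median 702). eRestore mice had 1053 to 1472 after CHI (median 1185) and 602 to 850 after sham surgery (median 677). In neither of these strains did any CHI mouse overlap with a sham mouse. The nRestore mice gave 880 to 1174 after CHI (median 1064), and the 4 sham mice 687, 591, 592 and 657, again without overlap. gKO mice ran from 774 to 1301 after CHI (median 1050) and from 571 to 1124 after sham surgery (median 736), so that 6 of 13 CHI mice were above all sham mice. The log2 fold change was 0.56 ± 0.08 (SE, adjusted p = 2.6e-05) in C57BL/6J mice, 0.77 ± 0.08 (2.1e-05) in eRestore, 0.71 ± 0.11 (0.0072) in nRestore and 0.50 ± 0.10 (0.044) in gKO mice. Over all strains it was 0.62 ± 0.05, a 1.53-fold higher level (adjusted p = 3.0e-16).

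Of the 20 semaphorins 10 passed over all strains at 9 h, 4 higher and 6 lower, while 4483 of all 18741 genes tested passed. Sema4b, the close relative of Sema4a, rose by less: 305 to 460 normalised read counts in C57BL/6J CHI mice against 266 to 339 in sham mice, and 0.17 ± 0.04 over all strains (adjusted p = 0.00021). Sema3f, a secreted semaphorin that binds Nrp2, was higher by 0.23 ± 0.06 (0.0015), and Sema6b by 0.14 ± 0.04 (0.0023). Sema6d, a transmembrane semaphorin that signals through plexin A1, fell in C57BL/6J mice from 1463 to 2271 after sham surgery to 1057 to 1567 after CHI, with 11 of 15 CHI mice below all sham mice. Its log2 fold change was -0.24 ± 0.04 over all strains (adjusted p = 1.0e-05). The secreted Sema3a, Sema3c and Sema3e fell, with log2 fold changes of -0.21 ± 0.06, -0.15 ± 0.06 and -0.21 ± 0.06, as did the membrane-bound Sema4c with -0.14 ± 0.05. Sema3e passed in nRestore mice (-0.56 ± 0.08, adjusted p = 0.0066), where the 6 CHI mice had 728 to 925 counts and the sham mice 978 to 1286. Sema3b had a log2 fold change of -0.78 ± 0.29 (adjusted p = 0.043), which moved with choroid plexus level. With that level as a covariate it was -0.20 ± 0.15 (adjusted p = 0.38).

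Plexins and neuropilins, the semaphorin receptors, were lower wherever they passed. Of 9 plexins 4 fell and 0 rose at 9 h over all strains, while 4483 of all 18741 genes tested passed in either direction. Plxnb3, a plexin of oligodendrocyte lineage cells, had 163.7 to 377 normalised read counts in C57BL/6J CHI mice (median 267) against 275 to 365 after sham surgery (median 349), and 10 of 15 CHI mice were below all sham mice. In nRestore mice CHI gave 192.6 to 281 counts, and the 4 sham mice had 321, 402, 308 and 472, with no overlap. The log2 fold change was -0.37 ± 0.10 in C57BL/6J, -0.42 ± 0.10 in eRestore, -0.44 ± 0.15 in gKO and -0.50 ± 0.13 in nRestore mice, and passed in C57BL/6J and eRestore mice (adjusted p = 0.015 in each). Over all strains Plxnb3 fell to 0.744 of the sham level (-0.43 ± 0.07, adjusted p = 6.2e-07). The summed level of 5 oligodendrocyte markers ran from 64714 to 182824 normalised counts after CHI and from 67628 to 160776 after sham surgery, and 0 of the 5 passed. Of 3 precursor markers Pdgfra was higher over all strains (0.20 ± 0.04, adjusted p = 6.4e-05 in edgeR). Cspg4 (0.11 ± 0.06) and Olig1 (-0.05 ± 0.06) did not pass. The part of these markers in the Plxnb3 values was not tested. Plxna3 had a log2 fold change of -0.27 ± 0.06 (adjusted p = 0.00053), Plxnc1, the receptor of Sema7a, -0.21 ± 0.06 and Plxnb2, a receptor of class 4 semaphorins, -0.15 ± 0.05. Nrp2 fell in C57BL/6J mice, from 485 to 850 counts after sham surgery (median 729) to 285 to 678 after CHI (median 435), a log2 fold change of -0.66 ± 0.12 (adjusted p = 0.00068). It was -0.36 ± 0.11 over all strains, and Nrp1 did not pass (-0.03).

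**Figure D2:**
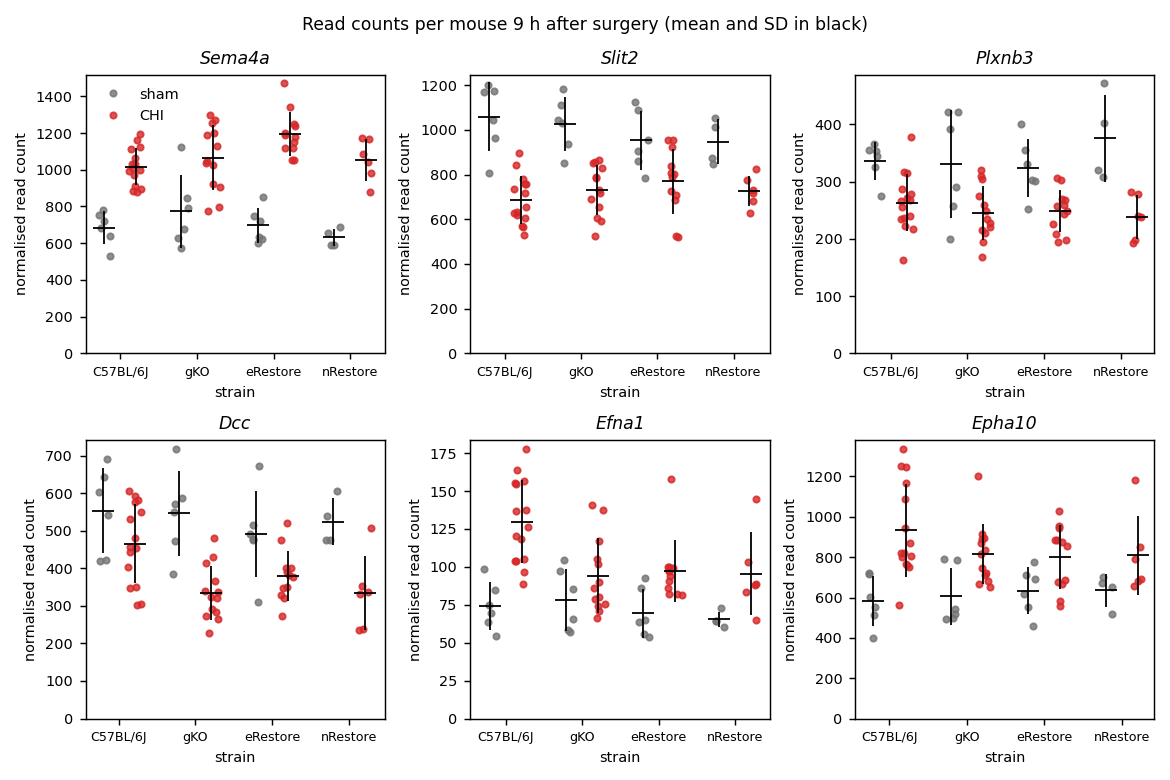
Normalised read counts of 6 genes in each mouse 9 h after surgery, by strain, with sham mice in grey and CHI mice in red; black marks are the mean and the SD. Sema4a, Efna1 and Epha10 lie higher in CHI mice and Slit2, Plxnb3 and Dcc lower, and for Sema4a the groups are apart in 3 of the 4 strains.

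The Slit ligands, which repel axons through Robo receptors, went in opposite directions at 9 h. Slit2 fell in every strain. In C57BL/6J mice it had 530 to 895 counts after CHI (median 654) and 807 to 1201 after sham surgery (median 1108), and 13 of 15 CHI mice were below all sham mice. gKO mice had 523 to 864 after CHI and 851 to 1184 after sham surgery, with 10 of 13 CHI mice below all sham mice. In nRestore mice the groups did not overlap, with 627 to 824 after CHI against 876, 848, 1051 and 1015 in the 4 sham mice. eRestore mice overlapped most, with 518 to 956 after CHI and 785 to 1127 after sham surgery. The log2 fold change was -0.64 ± 0.08 in C57BL/6J, -0.47 ± 0.09 in gKO, -0.47 ± 0.10 in nRestore and -0.30 ± 0.09 in eRestore mice, where the adjusted p was 0.0499 and close to the threshold. Over all strains Slit2 fell to 0.723 of the sham level (-0.47 ± 0.06, adjusted p = 8.4e-10). Slit3 was higher over all strains by 0.27 ± 0.06 (adjusted p = 0.00045) and passed in eRestore mice (0.48 ± 0.09, adjusted p = 0.0035), where 10 of 12 CHI mice were above all sham mice. Slit1 was higher by 0.19 ± 0.06 (adjusted p = 0.019). Robo1, a main Slit receptor, was lower, at -0.25 ± 0.05 (adjusted p = 0.0002), and Robo4, the endothelial member, was higher by 0.23 ± 0.07 (adjusted p = 0.011).

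Netrin-1 and its receptor were both lower. Dcc had 229 to 480 counts in gKO mice after CHI (median 323) and 384 to 718 after sham surgery (median 560), and 10 of 13 CHI mice were below all sham mice. In C57BL/6J mice the ranges were 303 to 606 and 420 to 690, and 5 of 15 CHI mice were below all sham mice. The log2 fold change was -0.70 ± 0.13 in gKO (adjusted p = 0.025), -0.37 ± 0.11 in eRestore (0.049), -0.75 ± 0.23 in nRestore (0.21) and -0.26 ± 0.13 in C57BL/6J mice (0.21). Over all strains Dcc fell to 0.718 of the sham level (-0.48 ± 0.08, adjusted p = 1.7e-06), and Ntn1 was at -0.21 ± 0.06 (adjusted p = 0.004).

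Ephrins and Eph receptors act in direct contact between cells. Of 7 ephrins 2 rose at 9 h over all strains, Efna1 and its neighbour on chromosome 3, Efna3, and none fell. Of all 18741 genes tested 4483 passed in that fit, a share near that of the ephrins. Efna1 had 89 to 177.6 counts in C57BL/6J mice after CHI (median 126.5), and sham mice had 55 to 99 (median 72), and 13 of 15 CHI mice were above all sham mice. Its log2 fold change was 0.77 ± 0.15 in C57BL/6J (adjusted p = 0.00076), 0.48 ± 0.15 in eRestore (0.049), 0.66 ± 0.22 in nRestore (0.22) and 0.30 ± 0.18 in gKO mice (0.58), and 0.52 ± 0.09 over all strains (3.9e-06). Efna3 was higher by 0.16 ± 0.04 over all strains (adjusted p = 0.0028). Of 13 Eph receptors 1 rose and 4 fell, to be read against the same share of all genes. Epha10, a receptor without kinase activity, had 562 to 1335 counts in C57BL/6J mice after CHI (median 822), and sham mice had 401 to 722 (median 577), and 14 of 15 CHI mice were above all sham mice. The log2 fold change was 0.65 ± 0.12 there (adjusted p = 0.00082) and 0.46 ± 0.08 over all strains (8.3e-06). Ephb1 fell in gKO mice, where all 13 CHI mice (649 to 971 counts) were below all 6 sham mice (1011 to 1301), with a log2 fold change of -0.41 ± 0.08 (adjusted p = 0.022). It was -0.48 ± 0.09 in nRestore mice (adjusted p = 0.031), and it did not pass in eRestore mice (-0.22 ± 0.09) or C57BL/6J mice (-0.09 ± 0.08). Ephb3, Epha5 and Epha7 fell over all strains, with -0.17 ± 0.05, -0.16 ± 0.06 and -0.15 ± 0.04 on the log2 scale.

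The 3 experiments at 9 h, each taken alone, gave the same direction for the 13 genes above that were selected at that time. The genes were picked in the fit of these same mice, so the shared direction is partly fixed by the selection. Sema4a was 0.65 ± 0.08 in TM-2-33, 0.61 ± 0.07 in eIL-1-76 and 0.72 ± 0.08 in eIL-1-80. Slit2 was -0.47 ± 0.09, -0.44 ± 0.08 and -0.48 ± 0.10 in the same order. Dcc varied more, with -0.84 ± 0.15, -0.30 ± 0.11 and -0.41 ± 0.13, as did Robo1, with -0.35 ± 0.10, -0.26 ± 0.08 and -0.08 ± 0.09. With choroid plexus level as a covariate 27 genes passed over all strains at 9 h, against 22.4% of all genes, and without the mice whose marker sum was above 4 times the median 19 passed, against 14.2% of all genes.

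**Figure D3:**
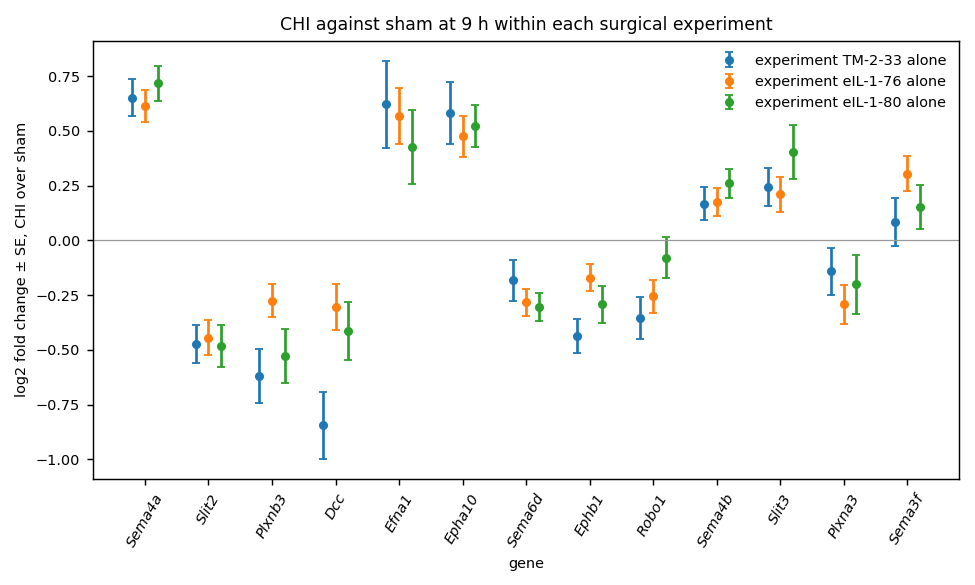
Log2 fold change of CHI over sham at 9 h, with its SE as bars, for 13 genes within each of the 3 experiments at that time. Points of the 3 experiments lie on the same side of 0 for each gene, and are widest apart for Dcc, from -0.84 to -0.30. The genes were picked in the fit of these same mice, which partly fixes the shared side.

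The CHI effect did not pass a test of difference between strains for any of the 60 genes. At 9 h each of the other strains was compared with C57BL/6J mice by an interaction in edgeR, and 0 genes passed in gKO, eRestore and nRestore mice, with 5, 7 and 6 genes at an unadjusted p under 0.05 (6.4%, 8.58% and 5.56% of all genes) and 0 by DESeq2. Of all genes 0%, 0.0107% and 0.00534% passed. For Sema4a the CHI effect differed from that in C57BL/6J mice by -0.07 (95% interval -0.31 to 0.17) in gKO, 0.20 (-0.04 to 0.45) in eRestore and 0.13 (-0.15 to 0.42) in nRestore mice. For Slit2 the differences were 0.15 (-0.14 to 0.44), 0.31 (0.02 to 0.60) and 0.25 (-0.09 to 0.59), where eRestore mice had an adjusted p of 0.55. These comparisons share the C57BL/6J mice. The nRestore mice at 9 h shared no experiment with the C57BL/6J mice, so strain and experiment cannot be told apart there. The effect did not pass a test of difference between males and females for any gene at 9, 24 or 72 h (2, 3 and 5 genes at an unadjusted p under 0.05, against 2.29%, 5.26% and 9.03% of all genes, and 0 by DESeq2). At 72 h this test left out the nRestore mice, which were all male, and used 56 mice.

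Few axon guidance genes passed at 24 h and 0 at 72 h. Over all strains at 24 h 2 of the 60 passed, both lower, against 1.48% of all genes. Robo3, a Robo that silences Slit repulsion before midline crossing, had 64 to 170.3 counts in C57BL/6J mice after CHI (median 98), and sham mice had 94 to 186.1 (median 148.7). eRestore mice had 65 to 161.4 after CHI, and the sham mice 148.5, 144.95, 89, 170.8 and 165.5. In nRestore mice it had 128.7 to 231 after CHI and 390, 177.5, 233, 181.7 and 244 after sham surgery. Groups overlapped in each strain, and Robo3 passed in 0 single strains. Its log2 fold change was -0.31 ± 0.18 in C57BL/6J mice (adjusted p = 0.67 in edgeR) and -0.66 ± 0.32 in gKO mice (0.58). Over all strains it was -0.59 ± 0.13 (adjusted p = 0.0061). Experiments were unevenly split at 24 h, with 18 CHI mice and 1 sham mouse in NiL-1-21, 8 and 12 in NiL-1-24 and 17 and 9 in eIL-1-38. With experiment in place of age Robo3 was at -0.47 (adjusted p = 0.021), and it did not pass in NiL-1-24 alone (-0.51, adjusted p = 0.87), in eIL-1-38 alone (-0.45, 0.22), without eRestore mice (-0.56, 0.057) or without nRestore mice (-0.55, 0.054). Sema7a was -0.15 ± 0.04 (adjusted p = 0.025), and passed in C57BL/6J mice (-0.24 ± 0.05, adjusted p = 0.026), the 1 gene called in a single strain at 24 h (against 0.404% of all genes, and 9.07% at an unadjusted p under 0.05). There it had 3228 to 3986 counts after CHI and 3627 to 4593 after sham surgery. In the other strains at 24 h edgeR called 0 genes, with 6 in gKO, 6 in eRestore and 3 in nRestore mice at an unadjusted p under 0.05 (8.86%, 9.05% and 4.34% of all genes). Of all genes 0.0059% passed in gKO mice. DESeq2 called 1 in gKO mice and 0 in the others. At 72 h 0 of 60 passed over all strains (2 at an unadjusted p under 0.05, 0 by DESeq2), against 0.706% of all genes, and 0 in each strain. Sema4a was 0.04 ± 0.04 at 24 h and 0.02 ± 0.04 at 72 h over all strains, and Slit2 0.02 ± 0.06 and -0.03 ± 0.07.

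**Figure D4:**
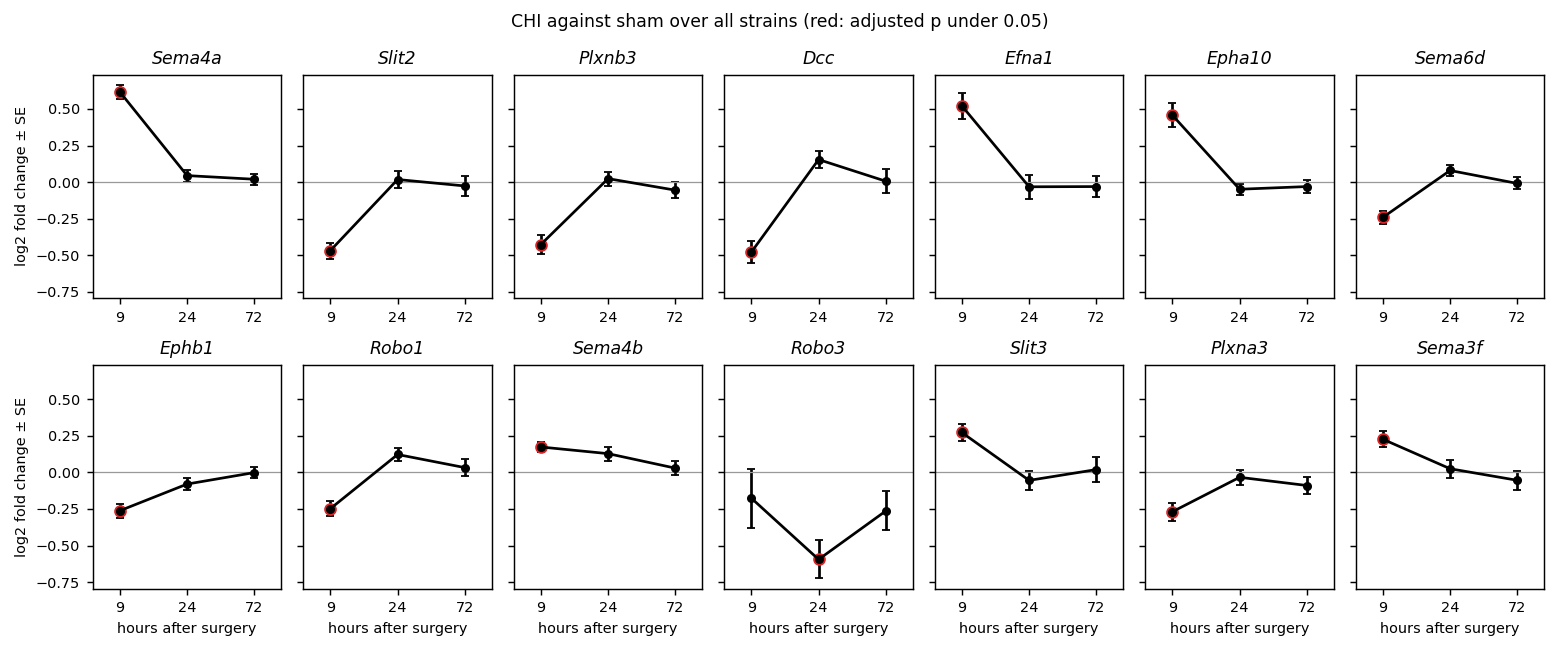
Log2 fold change of CHI over sham in all strains at 9, 24 and 72 h for 14 genes, with its SE as bars; red points have an adjusted p under 0.05. For 13 genes the red point is at 9 h, and for Robo3 it is at 24 h.

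The CHI effect at 9 h was set against the later times in 1 fit of all mice. It differed from 24 h for 16 of the 60 genes (5 up, 11 down), against 10.7% of all genes, and from 72 h for 17 (4 up, 13 down), against 13.1%, and the comparisons share the 9 h mice. From 24 to 72 h 0 of the 60 genes passed (3 at an unadjusted p under 0.05, 0 by DESeq2), while 7 of all 20111 genes tested passed. Among those that passed, the largest differences from 24 h were Sema4a at 0.62 ± 0.06, Dcc at -0.60 ± 0.11, Efna1 at 0.55 ± 0.12 and Epha10 at 0.53 ± 0.08. Time and experiment cannot be told apart in the comparisons with 9 h. Between 24 and 72 h they can be told apart only in part, as experiments eIL-1-38 and NiL-1-21 held mice of both times.

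Sham mice also differed between times, where time after surgery, time of day and experiment cannot be told apart. At 9 h 24 of 60 genes differed from 24 h in sham mice, 17 higher and 7 lower, against 42.9% of all genes, a share close to the background. Slit2 had 785 to 1201 counts in the 22 sham mice at 9 h (median 1023), 529 to 935 in 22 at 24 h (median 740) and 493 to 1025 in 23 at 72 h (median 822). It was 0.47 ± 0.08 higher at 9 h than at 24 h in sham mice (adjusted p = 3.3e-06). Ephb6, a kinase-inactive Eph receptor, was 0.58 ± 0.07 higher and Nrp2 was lower at 9 h, at -0.48 ± 0.10. Robo3 was also lower at 9 h than at 24 h in sham mice, at -0.80 ± 0.22 (adjusted p = 0.0025 in edgeR). Sema4a did not pass this test, with medians of 679, 687 and 665 counts in sham mice at 9, 24 and 72 h.

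Between strains in sham mice, the axon guidance genes passed at a share near that of all genes or below it. In gKO and eRestore mice, Epha8 was higher than in C57BL/6J mice by 0.37 ± 0.11 and 0.47 ± 0.11, and Sema5b was lower, at -0.43 ± 0.10 and -0.38 ± 0.10. These were the 2 genes that passed in each strain, against 4.51% and 4.29% of all genes. nRestore mice had 4 (Epha3 0.36, Slit3 -0.37, Sema3g -0.42, Sema7a -0.21), against 12% of all genes. Of the 60 genes 0 passed between males and females in edgeR, where 73 of all 20111 genes tested passed. At an unadjusted p under 0.05 there were 7 of the 60, and DESeq2 called 0.

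The other genes of these pathways were taken from lists chosen with earlier results known, and are read against the 23.9% of all genes that passed over all strains at 9 h. Of 18 other netrin pathway genes 5 passed over all strains: the netrin receptor Unc5a (0.43 ± 0.05) and Ntn5 (0.50 ± 0.09) were higher, and the receptor Unc5b (-0.31 ± 0.07), Ntng1 (-0.31 ± 0.10) and Ntn4 (-0.18 ± 0.06) lower. Of 42 intracellular effectors 12 passed, 6 higher and 6 lower. Both lists passed at a share near that of all genes. Srgap1, a GTPase regulator that acts below Robo1, was lower, at -0.46 ± 0.08. Of 8 myelin-associated inhibitors and receptors 1 passed, Rtn4rl1 (0.38 ± 0.04), and of 10 adhesion co-receptors 0 in edgeR, with 4 at an unadjusted p under 0.05. In C57BL/6J mice alone, where 14.1% of all genes passed, 3 of these 10 fell, Met (-0.45 ± 0.15), Chl1 (-0.30 ± 0.09) and L1cam (-0.21 ± 0.07).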

How the data were processed

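RNA of 200 mice was sequenced. The submitters' processing notes name STAR, Salmon and GRCm39 for every sample. The study's methods, which describe the 61 C57BL/6J mice alone, name poly(A) selection, 1 frozen hemisphere and the nf-core/rnaseq pipeline, and these steps are not given for the other strains in the sources used here. The annotation release and the strandedness are not given in the sources used here, so reads of a gene and an antisense partner cannot be told apart. The deposited estimated counts are reads per gene, not normalized and not all whole. The deposited TPM values were scaled by the authors for transcript length and library size, and were used here for levels only.

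For this work the estimated counts, rounded to whole numbers, went into edgeR 4.0.16 under R 4.3.3. TMM factors and the robust quasi-likelihood F test were used, with sex and age as covariates and strain added in fits of all strains. A gene was kept if the number of mice with 10 or more counts reached the size of the smaller group. Adjustment of p-values (Benjamini-Hochberg) ran over all genes tested, with a threshold of 0.05. SEs were derived from the F statistics. Normalised read counts were scaled to a common library size. Sex was left out for nRestore mice at 72 h, which were all male. The test was run on simulated counts with known changes first. Mice were grouped by their labels, where separate mice are the replicates. Total counts of 14857985 to 57355676 per mouse make counting error small for most of these genes. Reads are not independent molecules.

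The members and the lists of genes were chosen with earlier results of these data known. Genes described with values by group were those called in the fit of all strains or in at least 2 of the 12 comparisons of a strain and time, with the smallest p, at most 14. Of the rest, the 2 genes with the smallest p in a comparison and other genes called were named with fewer values. Alternatives were RLE factors, DESeq2 1.42.0 with its size factors or with gene-length offsets, other filters, no covariates, experiment in place of age, 1 fit of all strains, the largest experiment alone, and leaving out each sham mouse or strain. Fits of each experiment and with choroid plexus level were chosen after seeing the data. Gene positions of the files' build were taken from GENCODE, and promoters from RefSeq on GRCm38.p6.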

Additional observations from a re-analysis of the deposited data

Results flagged for a closer look

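The 5 groups of 4 to 10 mice at 9 h were tested for 1 mouse standing far from the rest in each of the 14 genes described by group. Of these 70 sets of values 3 held such a mouse, while chance gives about 1 in 20. The highest Sema3f count of the C57BL/6J sham mice was 284 (replicate 4), against a group median of 193.5, and the same mouse had the lowest Slit3 count, 436, with the next at 648. The highest Sema3f count of the eRestore sham mice was 303 (replicate 3), with the next at 214.

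The CHI effect over all strains differed between 9 h and later times for most of these genes, by a contrast in 1 fit of all mice in edgeR with adjusted p under 0.05. Apart from Robo3, the genes were picked in the 9 h fit of these same mice, so a difference is partly fixed by the selection. Of all 20111 genes tested 2159 differed between 9 and 24 h, and 2640 between 9 and 72 h. At 9 h minus 24 h, on the log2 scale, the difference was 0.62 for Sema4a, 0.53 for Epha10, 0.55 for Efna1, 0.38 for Slit3 and 0.25 for Sema3f, all more positive at 9 h. It was -0.60 for Dcc, -0.44 for Plxnb3, -0.29 for Sema6d, -0.44 for Slit2, -0.35 for Robo1 and -0.19 for Ephb1. At 9 h minus 72 h it was 0.60 for Sema4a, 0.49 for Epha10, 0.57 for Efna1 and 0.28 for Sema3f. In the other direction it was -0.44 for Slit2, -0.38 for Plxnb3, -0.49 for Dcc, -0.26 for Ephb1, -0.23 for Sema6d and -0.28 for Robo1. The 9 h mice came from other experiments than the later mice, so time after surgery, time of day and experiment cannot be told apart.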

How the results depend on the processing

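The 36 called values of the 14 genes described by group kept their sign in all 559 recomputed values, and 439 of these also passed the test while 120 did not. The recomputed values use the same mice or part of them, so the kept sign is partly fixed by the selection. Sema4a over all strains at 9 h ranged from 0.56 to 0.72 and Slit2 from -0.52 to -0.40, each passing in all 16 settings. Plxnb3 and Epha10 over all strains also passed in all 16. Counts of genes called moved by over 1.5 times in 52 of 281 recomputed counts, and the cause was not tested. Where no share of all genes stands beside a count below, the count describes the setting alone.

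At 9 h the largest experiment alone gave 10 genes in C57BL/6J, 0 in gKO and 1 in eRestore mice. Experiment in place of age gave 7 in eRestore mice, no covariates 3 and no filter beyond 1 count 7, the last also 9 in nRestore mice. In 1 fit of all strains 2 passed in eRestore and 1 in nRestore mice. With choroid plexus level as a covariate, chosen after seeing the data, 1 passed in gKO, 7 in eRestore and 2 in nRestore mice. Of all genes 0.157%, 5.5% and 0.304% passed in the same order. Over all strains 17 passed without C57BL/6J mice and 19 without mice of high choroid plexus level. In experiments TM-2-33, eIL-1-76 and eIL-1-80 alone 8, 13 and 11 passed. The last 4 fits were chosen after seeing the data, and 14.2%, 1.97%, 9.48% and 9.5% of all genes passed in them. Leaving out a sham mouse at 9 h gave 11 to 17 genes in C57BL/6J, 0 to 4 in gKO, 2 to 14 in eRestore and 0 to 7 in nRestore mice. The changed counts were 1, 0, 0 and 0 without gKO replicates 1, 2, 3 and 5, 2, 3, 6, 4 and 5 without eRestore replicates 1 to 5, and 3, 0 and 2 without nRestore replicates 1, 3 and 4.

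At 24 h in C57BL/6J mice 2 passed by DESeq2 size factors, with experiment in place of age, with no covariates and with no filter, and 0 in the largest experiment alone and in 1 fit of all strains. Leaving out a sham mouse gave 0 to 2. In gKO mice 1 passed by DESeq2 size factors and in 1 fit of all strains, and in eRestore mice 3 with no filter. Over all strains 1 passed without C57BL/6J, gKO or nRestore mice and 0 without eRestore mice. In NiL-1-24 alone 0 passed, in eIL-1-38 alone 1, and without mice of high choroid plexus level 1. Against these last counts, 0%, 0.141% and 0.804% of all genes passed in the same order. The nRestore against C57BL/6J sham comparison gave 8 by DESeq2 size factors and 0 with experiment in place of age. Experiment in place of age and the largest experiment alone were not run for nRestore mice at 9 h, which came from 1 experiment. No paired analysis was possible because the replicate numbers only follow accession order and pair no mice.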
